A study of Sus scrofa with 6 samples.

Results

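Motile cilium genes were followed in the endometrium, the inner lining of the uterus, at day 12 of gestation in sows (Sus scrofa) of the Chinese breed Erhualian. A list of 44 genes was taken by symbol: 7 regulators of ciliogenesis and 37 genes of the axoneme, its dynein arms and other cilium parts. Of these, 38 matched a row of the deposited table of 14262 genes by Ensembl pig gene identifier. MCIDAS, CCNO, HYDIN, CFAP53, PIFO and CAPS matched no row and are not analysed here. LRRC6 is named DNAAF11 and ARMC4 is named ODAD2 in the table of identifiers. The 6 libraries came from 3 high prolific sows (parity 5, 8 and 8 in high 1, high 2 and high 3) and 3 low prolific sows (parity 7, 7 and 5 in low 1, low 2 and low 3), where parity is the number of litters borne. All sows were of the same breed and day, each library came from 1 sow, and the study was titled for differences in calcium ion concentration and litter size. Litter sizes, ages and the part of the uterus sampled were not given in the sources used here.

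Motile cilia are beating projections of epithelial cells, and in the uterus they stand on scattered ciliated cells among secretory cells of the surface and gland openings. A transcriptional cascade makes a cell multiciliated: GMNC and MCIDAS act with E2F factors to switch on FOXJ1, MYB, TP73 and RFX factors, which in turn drive genes of the axoneme. The axoneme is a ring of microtubule doublets around a central pair. Dynein arms on the doublets make the force, and radial spokes, the central pair apparatus and the nexin-dynein regulatory complex govern the beat.

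Values are the authors' normalized read counts per gene. They summed to between 22663087 and 24270245 per sow, a range set by the normalization and no measure of depth, so the depth behind a value is unknown and no counting interval is given. Differences are log2 fold changes, high minus low prolific, of log2(value + 1), with the standard error (SE) of limma's moderated fit over all 14262 genes. That scale slightly understates changes of low genes. No length per transcript was used, so levels are compared between sows and not between genes. The lowest group mean of the 38 genes was 42.3 (DNAI1 in high prolific sows), so regulators, dyneins, spokes and tektins of ciliated cells were all measured in this tissue. Low genes had been removed from the table before deposit, and whether the 6 unmatched members were among them is not known. In these bulk samples, fewer ciliated cells and less RNA per ciliated cell cannot be told apart.

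As a group the motile cilium genes lay slightly lower in high prolific sows, and no single gene passed the test. Of the 38 genes, 30 had a lower and 8 a higher mean log2 value, and the median log2 fold change was -0.18. Over all genes 50.4% lay lower, and the median was -0.0024. A fold of at least 1.2 toward low prolific sows was seen for 11 members and toward high prolific sows for 0, against 19.3% and 14.2% of all genes. limma called 0 of the 38 at an adjusted p under 0.05 (smallest adjusted p = 0.619), and it called 0 of 14262 genes, a background of 0%. At an unadjusted p under 0.05 limma had 1 member, CFAP52, lower in high prolific sows, where all genes gave 7.92%, made of 4.09% lower and 3.83% higher. The groups did not overlap in 4 members, 3 lower (SPAG16, CCDC40, CFAP52) and 1 higher (CCDC39), against 6.32% lower and 7.18% higher of all genes. The counts past an unadjusted p and without overlap are close to or below these backgrounds. The median SE of the members, 0.22, was above the 0.19 of all genes.

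**Figure D1:**
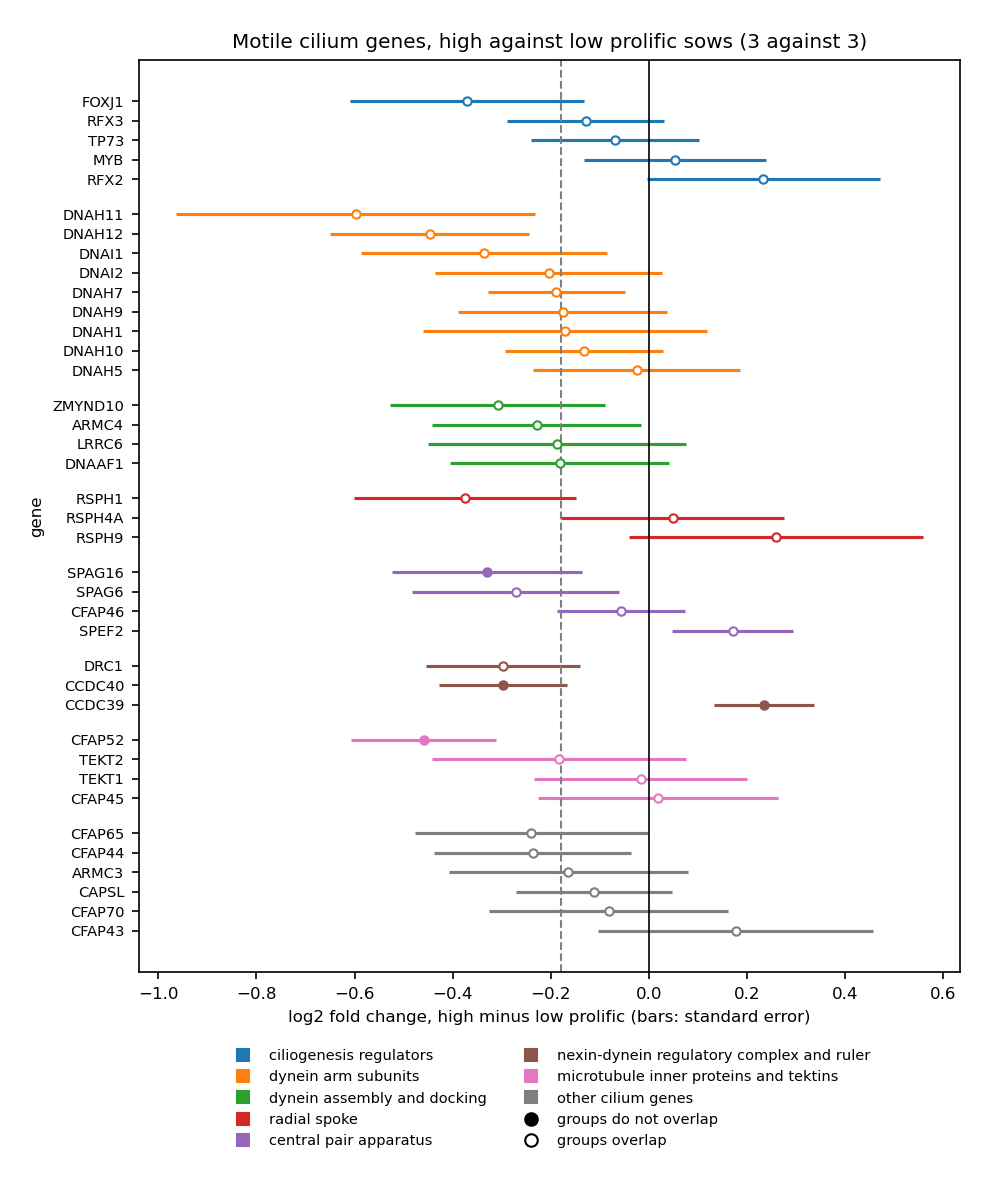
Log2 fold change, high minus low prolific, of each of the 38 motile cilium genes (x axis, points, with standard error as bars), grouped by role and with filled points where the 3 high and 3 low prolific sows do not overlap. The dashed line is the median of the members at -0.18, the dynein arm genes all lie below 0, and CCDC39 (0.23) and CCDC40 (-0.30) lie on opposite sides.

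The regulators did not move as a block. Their 5 measured genes had a median log2 fold change of -0.07, with 3 lower and 2 higher in high prolific sows, while the other 33 members had -0.18, with 27 lower and 6 higher. No test was made of that difference, and its size moved with the setting. With parity as a covariate the medians were -0.086 for the regulators and -0.102 for the other members. Without low 1 they were -0.014 and -0.064, and without high 1 they were -0.045 and -0.381. FOXJ1, the forkhead factor that drives motile cilium genes, was at 2353, 1379 and 1303 in high 1 to high 3 and at 2049, 1919 and 2324 in low 1 to low 3. High 1 thus held the highest FOXJ1 of all 6 sows, and high 2 and high 3 the lowest. Its mean was 1678 ± 586 (SD, n = 3) in high and 2097 ± 207 in low prolific sows, a log2 fold change of -0.37 ± 0.24 (SE). The call missed the threshold (adjusted p = 0.699 with limma). Without high 1 the value was -0.64 ± 0.13, still with an adjusted p of 0.523 by limma.

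RFX2, an RFX factor that binds cilium gene promoters together with FOXJ1, went the other way. It was at 890.1, 569.8 and 525 in high 1 to high 3 and at 554, 459.7 and 644 in low 1 to low 3. High 1 stood above all other sows, and the remaining 5 overlapped fully. The log2 fold change was 0.23 ± 0.24 (SE). Without high 1 it was -0.00024, and with parity as a covariate it was 0.38 ± 0.13, with an adjusted p of 0.676 by limma. RFX3, its close relative, which is also needed for primary cilia, was at 238, 202 and 189 against 247, 211 and 229. Its groups overlapped, with a log2 fold change of -0.13 ± 0.16.

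MYB and TP73 varied little between sows and in another order. MYB, which promotes the multiciliated fate and is also a factor of blood cell progenitors, was at 184, 199 and 245 in high and at 234, 186 and 186 in low prolific sows. High 1, the sow with the most FOXJ1, had the least MYB, but both ranks were near ties with low 3. FOXJ1 was at 2353 in high 1 and 2324 in low 3, and MYB at 184.1 and 185.5. TP73, the p53 relative that lies upstream of FOXJ1, was at 274, 272 and 306 in high and at 321, 337 and 242 in low prolific sows. Their log2 fold changes were 0.05 ± 0.19 and -0.07 ± 0.17 (SE). The value of MYB was -0.17 with both low 2 and low 3 left out, and between -0.066 and -0.0019 without high 3, low 2 or low 3. That of TP73 turned to 0.02 without low 2.

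**Figure D2:**
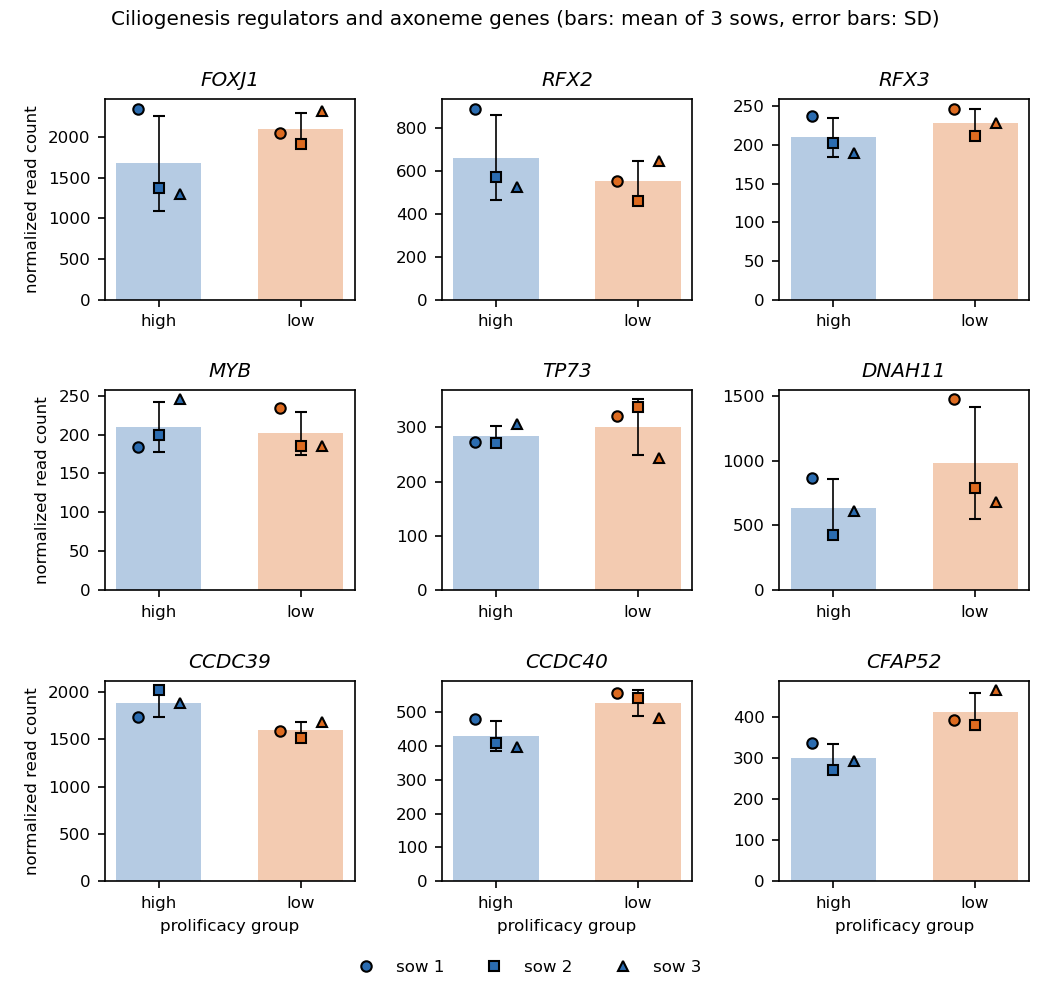
Normalized read counts (linear y axes from 0) of 5 ciliogenesis regulators and 4 axoneme genes in the 2 groups (blue for high, orange for low prolific), with bars for the mean of 3 sows, error bars for the SD and 1 symbol per label number. High 1 holds the highest FOXJ1 (2353) and RFX2 (890.1), and the groups do not overlap in CCDC39, CCDC40 and CFAP52.

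All 9 dynein arm subunits lay lower in high prolific sows, and their median log2 fold change was -0.19. The groups overlapped in each of the 9, where 13.5% of all genes had no overlap in either direction. So few genes cannot be told apart from that share. DNAH11, an outer arm heavy chain, had the widest difference of all members. It was at 866, 429 and 614 in high 1 to high 3 and at 1472, 786 and 684 in low 1 to low 3. Low 1 stood far above the rest, and high 1 lay above low 2 and low 3. The log2 fold change was -0.60 ± 0.37 (SE), 1.51-fold, and it was -1.27 ± 0.41 without both low 2 and low 3, where low 1 alone stands for its group (adjusted p = 0.954 with limma).

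DNAH12, an inner arm heavy chain, was at 626, 401 and 417 in high and at 614, 590.5 and 734 in low prolific sows. High 2 and high 3 lay below every low prolific sow, and high 1 inside their range. The log2 fold change was -0.45 ± 0.20 (SE), and -0.65 ± 0.15 without high 1. DNAH5, the outer arm heavy chain often mutated in primary ciliary dyskinesia, was nearly level. Its values were 1120.0, 1075 and 844 against 1226, 1137 and 768, with sow 3 the lowest of each group. The log2 fold change of DNAH5 was -0.03 ± 0.21 and turned to between 0.051 and 0.11 without high 3, low 1 or low 2. For the other heavy chains DNAH1, DNAH7, DNAH9 and DNAH10 it lay between -0.19 and -0.13. The intermediate chains of the outer arm, DNAI1 and DNAI2, had -0.34 ± 0.25 and -0.20 ± 0.23. DNAI1 was the lowest of the members in its own counts, at 37.9 to 63.6 over the 6 sows.

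The 4 genes of dynein assembly and docking all lay lower in high prolific sows too, with a median log2 fold change of -0.21. ZMYND10, a cytoplasmic factor that helps fold dynein heavy chains, had the widest difference, at 475, 323 and 293 in high and 485, 374 and 471 in low prolific sows. Its log2 fold change was -0.31 ± 0.22 (SE), and -0.52 ± 0.18 without high 1. High 1 and low 1 were level, and high 2 and high 3 lay below all low prolific sows. ARMC4, a subunit of the outer arm docking complex, had -0.23 ± 0.21. The assembly factors DNAAF1 and LRRC6 had -0.18 ± 0.22 and -0.19 ± 0.26, and LRRC6 turned to 0.04 without high 3.

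Radial spoke genes were mixed. RSPH1, a spoke head protein, was at 457, 266 and 296 in high and at 481, 404 and 406 in low prolific sows, a log2 fold change of -0.38 ± 0.23 (SE). Only high 1 of the high prolific sows reached the low prolific range. RSPH9, another head protein, was at 114, 81.9 and 122 against 124, 79.2 and 67.3. Low 1 held the highest RSPH9 and low 3 the lowest, so the 0.26 ± 0.30 of RSPH9 rests on sows that overlap fully. It was -0.25 without both low 2 and low 3. RSPH4A, a spoke head scaffold, had 0.05 ± 0.23, and turned to -0.17 without high 1.

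Of the central pair genes, 3 of 4 lay lower in high prolific sows. SPAG16, a component of the central apparatus, was at 92.5, 78.5 and 77.2 in high and at 116, 103 and 93.4 in low prolific sows. The groups of SPAG16 did not overlap, by a margin of 92.5 in high 1 against 93.4 in low 3. The log2 fold change was -0.33 ± 0.19 (SE). SPEF2, a projection protein that also serves in sperm tail assembly, lay higher, at 1631, 1752 and 1407 against 1537, 1292 and 1419 (0.17 ± 0.12). SPAG6 had -0.27 ± 0.21, with high 1 (366) the highest of the 6 sows. CFAP46 was near level at -0.06 ± 0.13.

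The molecular ruler that sets the spacing of dynein arms and spokes along the doublet is built of CCDC39 and CCDC40, which work as a pair. Their transcripts lay on opposite sides. CCDC39 was at 1739, 2019.7 and 1889 in high and at 1594, 1515 and 1685 in low prolific sows. All 3 high prolific sows thus stood above all 3 low prolific sows, with a log2 fold change of 0.23 ± 0.10 (SE). CCDC40 was at 480.4, 408 and 399 in high and at 556, 542 and 482 in low prolific sows. Here all 3 high prolific sows lay below, by a margin of 480.4 against 482, with a log2 fold change of -0.30 ± 0.13. Both had an adjusted p of 0.633 with limma. The ratio of CCDC39 to CCDC40 was 3.62, 4.94 and 4.74 in high and 2.87, 2.80 and 3.49 in low prolific sows, without overlap. This pair was picked after its values were seen, and the ratio was given no test. CCDC39 also departed from most members between sows, being lower in high 1 than in high 2 and high 3. DRC1, the scaffold of the nexin-dynein regulatory complex, was at 397, 338 and 347 against 451, 376 and 509.5 (-0.30 ± 0.16), with low 2 below high 1.

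CFAP52, a protein inside the doublet microtubules, had the smallest p of the members. It was at 337, 272 and 294 in high 1 to high 3 and at 394, 382 and 466 in low 1 to low 3. All 3 high prolific sows lay below all 3 low prolific sows, and CFAP52 was 1.38-fold higher in the latter, at a log2 fold change of -0.46 ± 0.15 (SE). The unadjusted p was 0.0195 and the adjusted p was 0.619 with limma. Over 17 alternatives the value of CFAP52 ran from -0.54 to -0.37 and kept its sign. CFAP45, which lies in the same lumen, was at 955, 649 and 627 against 949, 685 and 576, a difference of 0.02 ± 0.24, and with both low 2 and low 3 left out it was -0.38. The tektins TEKT1 and TEKT2, filaments of the doublet wall, had -0.02 ± 0.22 and -0.18 ± 0.26.

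Among the 6 other cilium genes the log2 fold changes ran from -0.24 to 0.18. CFAP65, known for its need in sperm flagella, was at 947, 655 and 609 in high and at 1089, 679.6 and 839.6 in low prolific sows (-0.24 ± 0.24, SE). CFAP43 lay higher in high prolific sows at 198, 138 and 131 against 162, 96.9 and 157 (0.18 ± 0.28), where low 2 was the lowest sow. CFAP43 and CFAP44 are partners that tether an inner dynein, and CFAP44 had -0.24 ± 0.20. CFAP70, ARMC3 and CAPSL, a calcium-binding protein of ciliated cells, had -0.08 ± 0.24, -0.16 ± 0.24 and -0.11 ± 0.16.

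What the members shared more visibly than a difference between groups was an order of the sows. High 1 and low 1 stood high, low 3 lay between, low 2 was lower, and high 2 and high 3 were lowest. The median deviation of the 38 genes from their own means was 0.20 in high 1, -0.22 in high 2, -0.26 in high 3, 0.24 in low 1, -0.10 in low 2 and 0.10 in low 3, in log2 units. The lowest sow was high 2 or high 3 in 27 of 38 genes (71.1%), against 32.6% of all genes, and the highest was high 1 or low 1 in 27 of 38, against 24.2% of all genes. Low 1 exceeded low 2 in 37 of 38 genes, against 50.5% of all genes, and the exception was TP73. In 20 of 38 genes (52.6%) high 2 and high 3 both lay below all low prolific sows, against 14.2% of all genes. High 1 exceeded both high 2 and high 3 in 32 of 38 genes (84.2%), against 35.5% of all genes. The 6 exceptions were MYB, TP73, RSPH9, SPEF2, CCDC39 and CFAP70. These sow contrasts were chosen after the values were seen and are descriptions with no test.

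**Figure D3:**
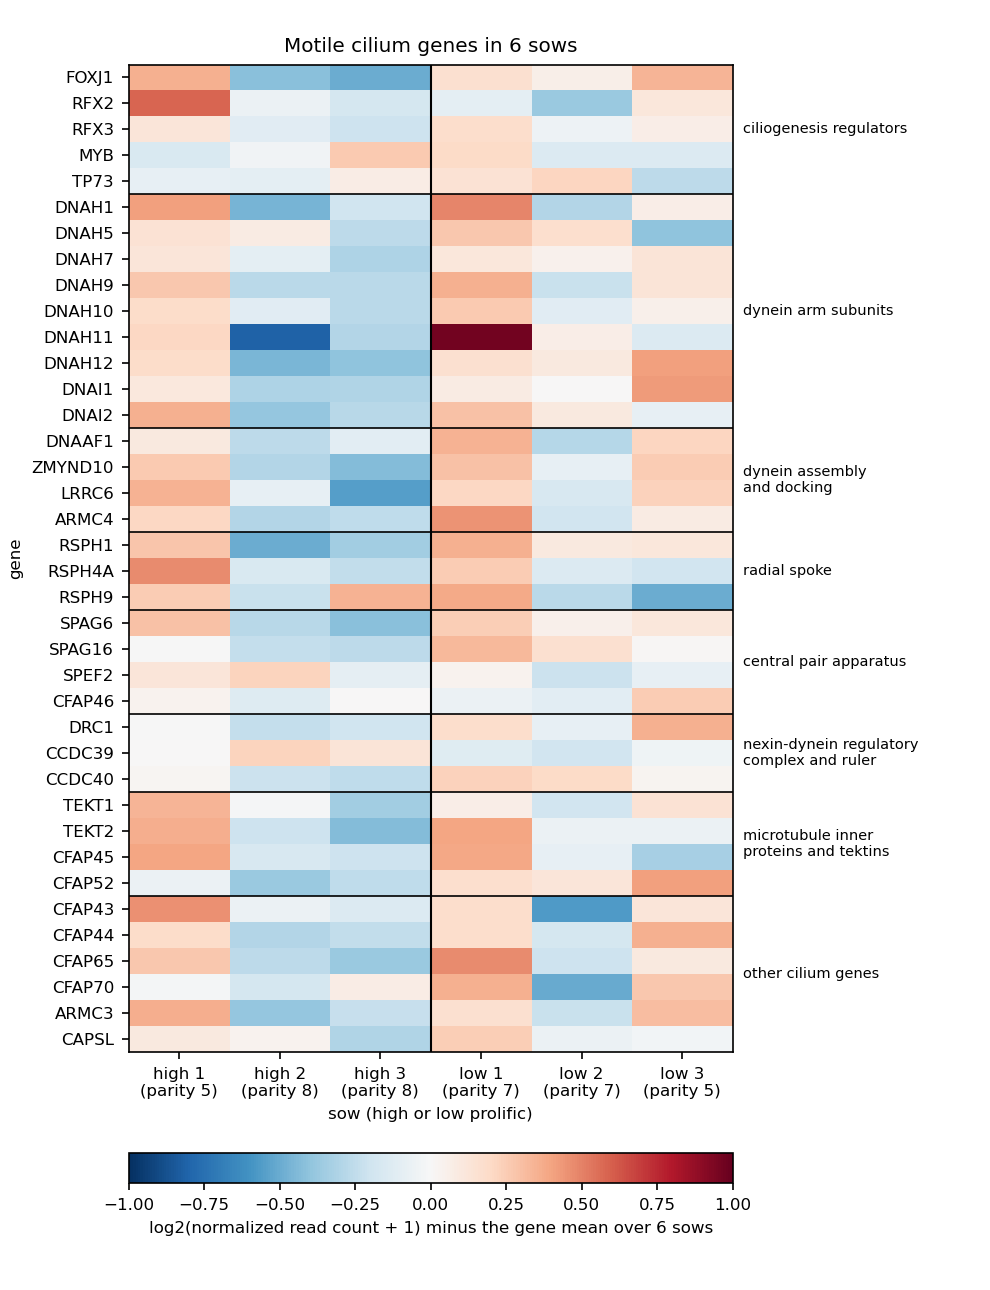
Deviation of log2(normalized read count + 1) from each gene's mean over 6 sows (colour, red above and blue below) for the 38 motile cilium genes (rows, by role) in each sow (columns, with parity). High 2 and high 3 are blue in most rows and high 1 and low 1 red, with median deviations of -0.22, -0.26, 0.20 and 0.24.

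The spread within the high prolific group was wider than the difference between the groups. High 1 lay above the mean of high 2 and high 3 by a median of 0.47 log2 units over the 38 genes, against 0.0020 over all genes. The SD of a member's log2 value over the 6 sows had a median of 0.29, against 0.25 for all genes, and 25 of the 38 lay above that. Without high 1 the median log2 fold change of the members went from -0.18 to -0.36, with 34 lower and 4 higher. At an unadjusted p under 0.05 limma then had 7 lower (FOXJ1, DNAH12, ZMYND10, RSPH1, SPAG6, CCDC40 and CFAP52) and 1 higher (CCDC39). The 7 make 18.4% of the members, against 5.20% of all genes in that setting, and 0 passed after adjustment (smallest adjusted p = 0.523). High 1 stood high in most members, so leaving it out lowers the high prolific mean of many at once. Lower members at that p were 0 without high 2 (1.75% of all genes) and 0 without high 3 (3.22%). There were 1 without low 1 (7.78%), 1 without low 3 (5.08%) and 3 without low 2 (2.42%). Leaving out low 1 moved the median to -0.06, high 2 to -0.11, high 3 to -0.10, low 2 to -0.29, low 3 to -0.16, and both low 2 and low 3 to -0.33, each with 0 members past the adjusted threshold. The sign of the median held in each of these.

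Parity followed the order of the sows only in part. Low 1, of parity 7, stood highest, while low 2, also of parity 7, lay below the parity 5 sows high 1 and low 3. High 2 and high 3, where the members were lowest, were the sows of parity 8, a parity absent from the low prolific group, so parity and group cannot be told apart for those 2. At parity 5 there was 1 sow of each group, and high 1 exceeded low 3 in 26 of 38 genes, by a median of 0.12 log2 units, against 7198 of all 14262 genes and a median of 0.0033. At parity 7 there were low prolific sows only, and low 1 lay above low 2 by a median of 0.29 log2 units. With parity as a covariate the median log2 fold change of the members was -0.10, with 30 lower and 8 higher. RFX2 (0.38), DNAH12 (-0.32) and CFAP52 (-0.39) then had an unadjusted p under 0.05 with limma, 3 of 38 members against 7.37% of all genes, and the smallest adjusted p of the members was 0.676.

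Genes of the same structure outside the members followed the same order of sows. Of 91 further structural genes of motile cilia, 68 matched a row, 52 of them lower and 16 higher in high prolific sows, with a median log2 fold change of -0.16. Their median deviations were 0.21, -0.19 and -0.23 in high 1 to high 3 and 0.23, -0.10 and 0.11 in low 1 to low 3. At an unadjusted p under 0.05 limma had 4 of the 68 lower and 1 higher, and 0 passed after adjustment (smallest adjusted p = 0.619). These 5 make 7.35% of the 68, close to the 7.92% of all genes. DRC7, a subunit of the regulatory complex beside DRC1, was at 316, 237 and 285 in high and at 473, 396 and 540.2 in low prolific sows. The groups of DRC7 were well apart, with a log2 fold change of -0.75 ± 0.18 (SE). ADGB, androglobin, known from ciliated cells and sperm, was at 1404, 1095 and 1111 against 1468, 1579.9 and 1598 (-0.37 ± 0.13). RSPH3, a spoke stalk protein, was at 216, 263 and 243 against 304, 328 and 296 (-0.36 ± 0.14). CFAP77 lay lower as well (-0.61 ± 0.25). SPAG8, a protein inside the doublet, lay higher, at 731, 744 and 667 against 597, 493 and 587 (0.36 ± 0.12).

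Genes of transport into cilia, which primary cilia of most cells use too, did not show that order. Of 43 intraflagellar transport and BBSome genes 40 matched, 24 higher and 16 lower in high prolific sows, with a median log2 fold change of 0.03 and median deviations between -0.06 and 0.04 over the 6 sows. None of the 40 had an unadjusted p under 0.05 with limma, against 7.92% of all genes. BBS10, a chaperonin-like factor of BBSome assembly, was at 305, 361 and 277 against 227, 264 and 245 (0.35 ± 0.16, SE). WDR35, of the retrograde transport complex, had 0.26 ± 0.12 and IFT56, of the anterograde complex, -0.23 ± 0.13. Of 15 further dynein assembly genes 12 matched, with 5 higher and 7 lower. None of these 12 had an unadjusted p under 0.05 with limma, where all genes gave 7.92%. DAW1, which helps deliver outer arms, had -0.42 ± 0.22, and TTC12 had 0.27 ± 0.17.

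A list of further regulators of multiciliation, which also holds genes with other main roles, was mixed, and its difference from the axoneme genes was not tested. Of its 28 genes 22 matched, 14 higher and 8 lower in high prolific sows, with a median log2 fold change of 0.09. At an unadjusted p under 0.05 limma had 2 higher and 2 lower. These 4 make 18.2% of the 22, against 7.92% of all genes, and 0 passed after adjustment. GMNC, the geminin relative at the head of the cascade, was at 459, 626 and 1159 in high and at 470.3, 434 and 297 in low prolific sows. High 2 and high 3, the sows with the least FOXJ1, held the most GMNC. DEUP1, which builds the deuterosomes that multiply centrioles in these cells, was at 335, 140.0 and 169.9 against 298, 200.2 and 242 (-0.29 ± 0.35) and was lowest in high 2 and high 3. The groups of GMNC overlapped through high 1, and its log2 fold change was 0.82 ± 0.36 (SE, adjusted p = 0.634 with limma). ID4, an inhibitor of helix-loop-helix factors with uses well beyond cilia, was at 3806, 5141 and 3481 against 3053, 1206 and 1515 (1.20 ± 0.36). KLF4 lay higher (0.29 ± 0.11). RFX5, which serves antigen presentation and not cilia, was at 756, 766 and 797 against 987, 949 and 901 (-0.29 ± 0.09). STIL, a centriole duplication factor of dividing cells, had -0.65 ± 0.25. It was highest in low 2 (717) and low 3 (519.9), the sows where cycling cell markers were high. TTLL9, a glutamylase of axonemal tubulin, had -0.38 ± 0.24.

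**Figure D4:**
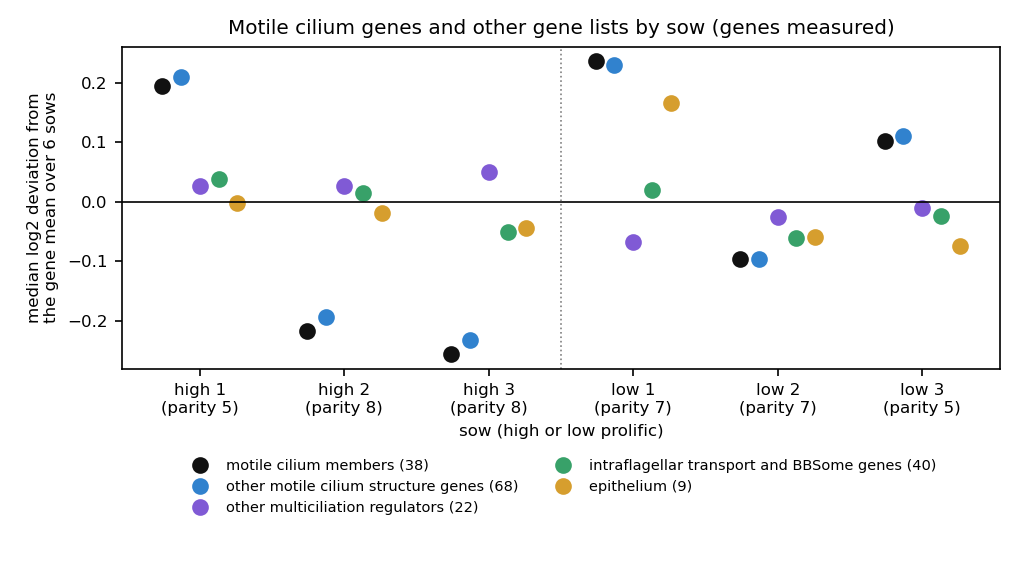
Median over each gene list of the log2 deviation from the gene's mean over 6 sows (y axis) in each sow (x axis, with parity), for the 38 motile cilium genes and 4 other lists with their number of measured genes. The members and the 68 other motile cilium structure genes lie together in all 6 sows, while 40 intraflagellar transport and BBSome genes stay between -0.06 and 0.04.

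Markers of other cell types moved between the same sows, and their part in the results above was not tested. Epithelial markers (9 of 10 matched) summed to between 71932 and 75327 in high and between 59747 and 84464 in low prolific sows, with low 1 the highest and low 3 the lowest. The summed level of the 38 motile cilium genes was 35.1%, 25.8% and 25.6% of that epithelial sum in the high prolific sows, in label order, and 30.5%, 26.4% and 38.4% in the low prolific sows. On this scale high 2, high 3 and low 2 were again the lowest, and low 3 and high 1 the highest. The epithelial sum mixes markers that went opposite ways, 5 higher and 4 lower in high prolific sows. They ran from -0.63 ± 0.26 for CLDN4 to 0.85 ± 0.58 for KRT7 (SE), and KRT8 was lowest in low 3 (11217). The ratio is thus no measure of cilium genes per epithelial cell. Gland markers matched in 2 of 7 only, at a sum of 1578 to 1926 in high and 1189 to 1750 in low prolific sows. FOXA2 made up most of that sum. Both gland markers lay higher in high prolific sows, FOXA2 at 0.27 ± 0.16 and LGR5 at 1.28 ± 0.47 (SE), with groups that overlapped. Stromal markers (9 of 9) had sums of 691538, 506311 and 528275 in the high prolific sows in label order, and of 599538, 810878 and 784177 in the low prolific sows. All 9 were higher in high 1 than in high 2 and high 3, as in 32 of the 38 cilium genes. In low 1 the stromal sum was below that of low 2, where the cilium genes were above it. Endothelial markers (4 of 6) summed to 7848 to 12197 in high and 10389 to 18973 in low prolific sows. All 4 lay lower in high prolific sows, with a median log2 fold change of -0.46. PECAM1, an adhesion molecule of endothelium, was at 3201, 2356 and 2663 against 4211, 4834 and 6353, without overlap (-0.90 ± 0.19, SE). Smooth muscle markers (5 of 6) summed to 17891 to 25185 in high and 17489 to 27207 in low prolific sows, a sum led by MYH11 (0.33 ± 0.36). The other 4 all lay lower in high prolific sows without overlap, as did 6.32% of all genes. Their log2 fold changes were -0.98 ± 0.27 for ACTA2, -2.06 ± 0.58 for ACTG2, -1.11 ± 0.54 for DES and -0.77 ± 0.38 for CNN1. The median of the 5 was -0.98, beside -0.18 for the cilium genes. Markers of T and NK cells (5 of 7) summed to 617 to 1028 against 586 to 612, and those of macrophages (5 of 6) to 4558 to 6335 against 4619 to 6627. All 5 T and NK cell markers lay higher in high prolific sows, with a median log2 fold change of 0.43. Neutrophil and mast cell markers (5 of 7) summed to 746 to 2133 in high prolific sows, to 954 in low 1 and to 13408 and 17053 in low 2 and low 3. S100A8 (5414 and 10857) and S100A12 (7533 and 5283) made up most of the sums in those last sows. CSF3R, a receptor of neutrophils, was lowest in low 2 (44.3), with a log2 fold change of 0.66 ± 0.71. Those of the mast cell genes KIT and MS4A2 were 0.049 ± 0.33 and -0.62 ± 0.43. Erythrocyte markers (2 of 6) summed to 624 to 2523 against 1691 to 7972. Markers of cycling cells, 9 of 11 matched, had sums of 1982, 907 and 629 in the high prolific sows in label order, 546 in low 1, 4677 in low 2 and 4809 in low 3. Of the conceptus markers 1 of 6 matched, SULT2A1, at 404 to 1479 against 405 to 4429. No matched marker was at 0 in any sow.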

How the data were processed

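The authors deposited 1 normalized read count per gene and sow, a signal that is never negative and not whole. Subread 1.6, featureCounts and edgeR are named in the submitters' processing notes, while their settings, the build, the annotation and the strand were not given in the sources used here. No coordinates are printed. Reads of overlapping or near-identical genes may have been split. Of values under 30, between 40.6% and 100% lay within 0.1 of whole multiples of 1 step, so reads were not recovered. All 14262 genes were at 10 or more in at least 3 sows, so low genes had been removed. Symbols matched 11977 genes.

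limma 3.58.1 in R 4.3.3 was fitted to log2(value + 1) with trend and robust moderation, two-sided, with Benjamini-Hochberg adjustment over all genes at 0.05. The fit was also run on simulated data, where genes varied independently and the planted changes were larger than those of any member. That run therefore does not show how well differences of the members' size are found. The members, roles and lists were chosen with earlier results of these data known. Every measured member is named. Values in all sows are given for regulators, for the widest rise and fall in each role, for members at an unadjusted p under 0.05 or without overlap, and for DNAH5. Other lists name at most 3 genes a direction by p. Values of DNAH12, DRC1, CFAP77, DEUP1 and the single epithelial, gland, endothelial, smooth muscle, neutrophil and mast cell genes were added after they were seen. A promoter search was not run, as no sequences were at hand. P-values set a difference against the spread between 3 sows per group, which limma moderates with the spread of all genes.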

Additional observations from a re-analysis of the deposited data

How the results depend on the processing

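The fit was repeated under 17 alternatives, and the median log2 fold change of the 38 members stayed below 0 in each, from -0.36 without high 1 to -0.06 without low 1. No member passed the adjusted threshold in any. Over all genes, 4 passed without low 1, 1 without low 2 and 0 in the others (0 to 4 over the left-out sows). The members at an unadjusted p under 0.05 were 1 as reported, 2 with columns rescaled to equal sums or quantile normalization, 3 with library weights or parity as a covariate, and between 0 and 8 with 1 sow left out. The share of all genes at that p moved too, from 7.92% as reported to 7.98% (equal sums), 8.17% (quantile), 11.7% (weights) and 7.37% (parity), and from 3.27% to 13.1% with 1 sow left out. Rescaling to equal sums moved the median of all genes to 0.042. Of the 38 genes, 24 kept their direction in every alternative that held them and 14 did not, with reported values between -0.19 and 0.26.

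Directions turned as follows. With columns rescaled to equal sums DNAH5 was 0.020 and TEKT1 0.028, with quantile normalization TEKT1 was 0.055, and with library weights RSPH4A was -0.024, TEKT1 0.018 and CFAP45 -0.084. With parity MYB was -0.0051 and TEKT1 0.085. Without both low 2 and low 3, where low 1 is assumed to vary like the high prolific sows, MYB was -0.17, RSPH4A -0.23, RSPH9 -0.25, CFAP46 0.030, CFAP45 -0.38 and CFAP43 -0.086. With 1 sow left out at a time, the members that turned ran over these ranges: RFX2 -0.00024 to 0.38, MYB -0.066 to 0.16, TP73 -0.22 to 0.021, DNAH1 -0.42 to 0.031, DNAH5 -0.23 to 0.11, LRRC6 -0.41 to 0.039, RSPH4A -0.17 to 0.19, CFAP46 -0.13 to 0.054, TEKT1 -0.19 to 0.15, CFAP45 -0.18 to 0.22, CFAP43 -0.061 to 0.31, CFAP70 -0.35 to 0.073 and CAPSL -0.19 to 0.0094. The radial spoke median of 0.049 was -0.16 at a mean of at least 200, which removes RSPH9, -0.024 with library weights, -0.25 without both low 2 and low 3, and -0.17 to 0.19 with 1 sow left out. The median of tektins and inner proteins ran from -0.30 to 0.057 with 1 sow left out. The cause of these turns was not tested.

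No pairing of sows by the label numbers 1 to 3 was given in the sources used here. Deviations of same-numbered sows from their group means correlated at -0.38, -0.16 and -0.36 across genes, and those of other pairs at -0.04 to 0.38. Deviations within a group depend on each other, so these correlations cannot settle whether sows were paired. With the number as a replicate block, 1 member (DNAH11, in place of CFAP52) had an unadjusted p under 0.05 with limma, against 4.31% of all genes. In that setting 0 members and 0 genes passed, and the median stayed at -0.18. Depth is unknown, so counting error was not separated from variation between sows.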
